A study of Mus musculus with 6 samples.

Results

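The Ly6 surface antigen genes of mouse chromosome 15 were followed in OT-I CD8+ T cells, which carry a transgenic receptor for a peptide of ovalbumin. The 7 genes Ly6a, Ly6c1, Ly6c2, Ly6e, Ly6i, Ly6k, and Ly6d were chosen by name from the 57126 genes of the deposited count table. CD8+ T cells from lymph nodes and spleens of OT-I mice were expanded with nano-aAPCs, iron oxide nanoparticles that carry the peptide on its MHC class I molecule and an antibody to CD28, and were harvested on day 6. The TEff group (3 samples) was expanded in IL-2, and the TRM-like group (3 samples) in IL-2 with added IL-15 and TGF-β, so that nano-aAPCs and IL-2 were shared by both groups and IL-15 and TGF-β cannot be told apart. All cells bear the same transgenic receptor and were grown in culture, and the labels do not say whether the replicates came from separate mice or cultures. The p-values therefore measure the spread between these samples, which may be technical.

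Ly6 proteins are small, folded by disulfide bonds in the pattern shared with the urokinase receptor, and most of them are tied to the outer face of the cell membrane by a glycosylphosphatidylinositol (GPI) anchor. Ly6a, also called Sca-1, marks hematopoietic stem cells and activated lymphocytes and is known to be induced by interferons. Ly6C, the product of Ly6c1 and Ly6c2, is a surface marker of inflammatory monocytes and of effector and memory CD8+ T cells that circulate. The comparison asks how the surface antigen genes of this family differ between effector cells and cells grown toward a tissue-resident memory (TRM) state.

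In the TRM-like cells, Ly6a was 2.61-fold higher and both Ly6C genes were 4.04-fold (Ly6c1) and 4.06-fold (Ly6c2) lower than in TEff cells, with no overlap between the samples of the groups. Ly6e, the member with the most reads, differed by less than the spread between replicates. Ly6i and Ly6k stood at low counts and did not pass the test, and Ly6d had at most 1 read in any sample. Of the 6 members with enough counts to test, 1 was higher and 2 were lower past the threshold, which was a Benjamini-Hochberg adjusted p below 0.05 in edgeR's quasi-likelihood test and an absolute log2 fold change above 0.58. Over all 26154 genes tested, 3.01% passed this threshold, 1.52% being higher and 1.48% lower in TRM-like cells. The CPM values (read counts relative to the library size as scaled by TMM) of the groups did not overlap for 3 members, against 20.3% of all genes tested.

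The members lie within one gene cluster. In the GRCm39 build with a later GENCODE annotation (M39), from low to high coordinates, Ly6d is at chr15:74633902-74635597, Ly6k at chr15:74668723-74672029, and Ly6e at chr15:74826860-74847454. Then follow Ly6i at chr15:74851383-74855279, Ly6a at chr15:74863840-74869880, Ly6c1 at chr15:74915847-74920686, and Ly6c2 at chr15:74980003-74988467. All are protein coding with 3 coding exons in the canonical transcript, and Ly6e alone is on the plus strand. Exons of the antisense RNA genes Gm28068, Gm17189, and Gm62552 overlap exons of Ly6a, Ly6k, and Ly6e by 223, 665, and 465 bases. The strand setting of the counting is not given in the sources used here. Gm28068 had 2 to 12 reads per sample and Gm17189 at most 1, and Gm62552 has no row in the table.

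Ly6c1 and Ly6c2 are near copies, which bears on how their reads can be assigned. Their coding sequences have the same length of 393 bases and differ at 9 of them, an identity of 97.7%. The first 150 coding bases of both genes are shown to let the difference be seen, with the 6 bases that differ in capitals (reference sequence, GRCm39).

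Ly6c1: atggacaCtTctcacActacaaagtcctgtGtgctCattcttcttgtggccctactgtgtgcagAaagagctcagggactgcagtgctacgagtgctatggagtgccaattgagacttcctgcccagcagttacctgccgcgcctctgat
Ly6c2: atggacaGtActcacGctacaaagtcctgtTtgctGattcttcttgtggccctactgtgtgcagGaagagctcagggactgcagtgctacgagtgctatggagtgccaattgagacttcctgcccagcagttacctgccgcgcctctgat

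All 6 differences lie in the first part of this stretch, which encodes the signal peptide, and the rest of the stretch is the same in both genes. Along the canonical transcripts, a window of 100 bases was found letter for letter in a transcript of another gene for 15.1% of the windows of Ly6c1 and 15.4% of those of Ly6c2, and a window of 150 bases for 4.15% and 5.67%. For Ly6e, Ly6k, and Ly6d no such window was found at 50, 100, or 150 bases. How reads that map to several places were counted is not given in the sources used here, so the split of reads between Ly6c1 and Ly6c2 is uncertain. Ly6c1 also shared 125 windows of 50 bases and 35 of 100 bases with Ly6a, so that reads of this pair could be split as well. The next closest coding pairs were Ly6a with Ly6i at 86.3% identity and Ly6a with Ly6c1 at 81.8%, and Ly6e was at 48.3% to 50.2% with Ly6a, Ly6c1, Ly6c2, and Ly6i.

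Ly6a, the antigen of activated lymphocytes, was the member that rose. It had 77.1, 90.7, and 86.9 CPM in TEff replicates 1, 2, and 3 (1686, 1791, and 1572 reads) and 228, 278, and 159 CPM in TRM-like replicates 1, 2, and 3 (5221, 6361, and 3443 reads). All TRM-like samples lay above all TEff samples, and TRM-like replicate 3 was the lowest of its group. The mean went from 84.9 ± 7 to 221 ± 59.8 CPM (SD, n = 3), a log2 fold change of 1.38 with a standard error of 0.20 and a 95% interval of 0.92 to 1.84 (edgeR's quasi-likelihood test, Benjamini-Hochberg adjusted p = 0.00758). Leaving out any one sample gave log2 fold changes of 1.18 to 1.57, but the adjusted p of the same edgeR test was 0.0723 without TEff replicate 1 and 0.0649 without TEff replicate 3.

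**Figure D1:**
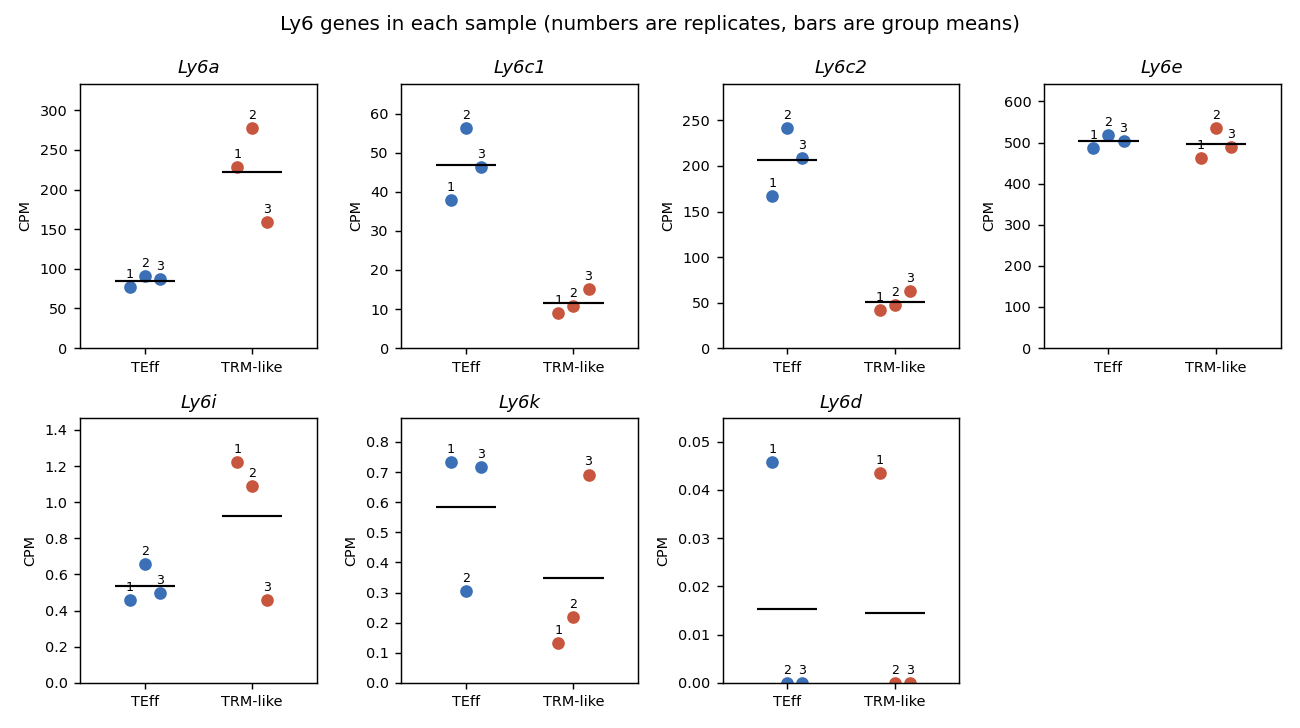
CPM (linear axes from 0) of each Ly6 gene in the 3 TEff and 3 TRM-like samples, 1 panel per gene with its own scale. Points are samples numbered by replicate and bars are group means. The groups are apart for Ly6a (159 CPM or more against 90.7 or less), Ly6c1, and Ly6c2, and overlap for the other genes.

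The Ly6C genes fell together. Ly6c2 had 167, 242, and 209 CPM in TEff replicates 1, 2, and 3 (3656, 4773, and 3791 reads) and 42.2, 47.6, and 62.6 CPM in TRM-like replicates 1, 2, and 3 (967, 1090, and 1358 reads). Its highest TRM-like sample, replicate 3, was still far below its lowest TEff sample. The mean went from 206 ± 37.3 to 50.8 ± 10.6 CPM (SD, n = 3), a log2 fold change of -2.02 with a standard error of 0.20 and a 95% interval of -2.47 to -1.57 (edgeR's quasi-likelihood test, Benjamini-Hochberg adjusted p = 0.00119). Ly6c1, with fewer reads than Ly6c2 in every sample, had 37.9, 56.4, and 46.4 CPM in the TEff samples and 8.98, 10.8, and 15 CPM in the TRM-like samples. The same samples were high and low in both genes, TEff replicate 2 the highest and TRM-like replicate 1 the lowest. The mean of Ly6c1 went from 46.9 ± 9.28 to 11.6 ± 3.07 CPM (SD, n = 3), with a log2 fold change of -2.02, a standard error of 0.22, and a 95% interval of -2.52 to -1.51 (edgeR's quasi-likelihood test, Benjamini-Hochberg adjusted p = 0.00193). Ly6c1 took 18.5%, 18.9%, and 18.1% of the reads of both genes in the TEff samples and 17.6%, 18.5%, and 19.3% in the TRM-like samples. The share was thus alike in all samples and the groups overlapped, while the uncertain assignment of shared reads to either copy stands for both. Both calls held with each sample left out, at log2 fold changes of -2.21 to -1.89 for Ly6c2 and -2.25 to -1.86 for Ly6c1. The RNA came from all cells of a culture, so fewer cells with the transcript and less transcript per cell cannot be told apart, for Ly6a likewise.

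Ly6e, a widely expressed member known as the receptor for syncytin-A in the mouse placenta and as a restriction factor of coronaviruses, was the most read member in every sample. Its CPM was 486, 519, and 503 in the TEff samples and 462, 536, and 488 in the TRM-like samples. TRM-like replicate 1 lay below all TEff samples, replicate 2 above them, and replicate 3 among them. The log2 fold change was -0.02 with a standard error of 0.13 and a 95% interval of -0.32 to 0.28, so that a change of more than 0.32 in either direction lay outside the interval (edgeR's quasi-likelihood test, Benjamini-Hochberg adjusted p = 0.965). The direction of a value this close to 0 turned with single samples left out, between -0.08 and 0.03.

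The other members were near the limit of detection, which at 3 reads lay between 0.131 and 0.166 CPM per sample. Ly6i, the closest relative of Ly6a in coding sequence, had 10, 13, and 9 reads in the TEff samples and 28, 25, and 10 in the TRM-like samples. TRM-like replicates 1 and 2 were above all TEff samples and replicate 3 was among them. Its log2 fold change was 0.78 with a standard error of 0.44 (edgeR's quasi-likelihood test, Benjamini-Hochberg adjusted p = 0.478). Without TRM-like replicate 3 it was 1.09 with an adjusted p of 0.0492 in the same edgeR test. In that fit 3579 of all 25478 genes tested passed the threshold. Ly6k, best known from the testis, where it is needed for sperm function, had 16, 6, and 13 reads in the TEff samples and 3, 5, and 15 in the TRM-like samples. Its groups overlapped, and its log2 fold change was -0.76 with a standard error of 0.63 (edgeR's quasi-likelihood test, Benjamini-Hochberg adjusted p = 0.648). Ly6d, a marker of early B lymphoid progenitors and of keratinocytes, had 1 read in TEff replicate 1, 1 in TRM-like replicate 1, and 0 in the other 4 samples. A count of 0 allows up to 0.166 CPM in these libraries, counting error only, and no test was made.

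Levels of different genes were compared as CPM per kb of the gene length deposited by the authors. In TEff cells the order was Ly6c2 (237 ± 43.0), Ly6e (217 ± 7.24), Ly6a (84.5 ± 6.98), and Ly6c1 (30.3 ± 6.00), all as mean CPM per kb ± SD, n = 3. Ly6c2 and Ly6e could not be ranked, since the Ly6e samples (210 to 225) lay within the range of Ly6c2 (193 to 278), whereas the lower steps were larger than the spread. In TRM-like cells the order was Ly6a (221 ± 59.6), Ly6e (214 ± 16.3), Ly6c2 (58.5 ± 12.2), and Ly6c1 (7.50 ± 1.99). Here Ly6a and Ly6e could not be ranked, with samples of 158 to 277 and 200 to 232. Ly6i and Ly6k, at 0.419 to 0.800 CPM per kb as group means, overlapped each other in both groups. The level of Ly6a depends on the gene model, because its length was 1004 bases in the authors' annotation and its canonical transcript in M39 has 3706 bases. At the canonical lengths, a setting added after the data were seen, Ly6a was at 61.5, 75, and 42.9 CPM per kb in TRM-like replicates 1, 2, and 3, below Ly6e in each.

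The sum over the 7 genes overlapped between the groups while its make-up differed. Their summed CPM was 769.1, 908.9, and 846.7 in the TEff samples and 742.5, 874.0, and 725.9 in the TRM-like samples. Per kb of the deposited lengths, Ly6a made up 15.2%, 14.3%, and 15% of the members' sum in TEff cells and 47.0%, 48.4%, and 34.9% in TRM-like cells. Ly6c2 made up 38.1%, 44.1%, and 41.9% in TEff cells and 10.1%, 9.59%, and 15.9% in TRM-like cells. The share of Ly6e was 35.6% to 41.6% in TEff cells and 40.6% to 46.7% in TRM-like cells. At the deposited lengths, Ly6c2 was the more abundant of Ly6c2 and Ly6a in every TEff sample and Ly6a in every TRM-like sample. At the canonical lengths the order turned in TRM-like replicate 3, with 42.9 CPM per kb for Ly6a and 74.8 for Ly6c2. There Ly6e was at 198, 229, and 209 CPM per kb in TRM-like replicates 1, 2, and 3, and Ly6a at 61.5, 75, and 42.9. The shares depend on the lengths and were not computed at the canonical ones.

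**Figure D2:**
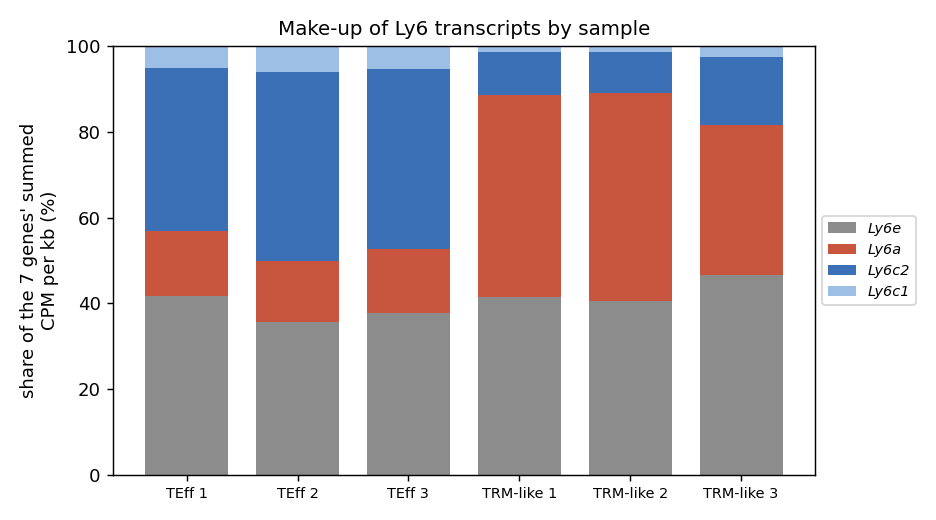
Share (%) of each gene in the summed CPM per kb (deposited gene lengths) of the 7 Ly6 genes, 1 stacked bar per sample. Ly6a fills 14.3% to 15.2% of the TEff bars and 34.9% to 48.4% of the TRM-like bars, and Ly6c2 the reverse, while Ly6i, Ly6k, and Ly6d are too low to be seen.

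Ratios within a sample do not depend on the scaling of libraries. The log2 ratio of Ly6c2 to Ly6a counts was 1.12, 1.41, and 1.27 in TEff replicates 1, 2, and 3 and -2.43, -2.54, and -1.34 in TRM-like replicates 1, 2, and 3. It changed sign between the groups, from 1.27 ± 0.15 to -2.11 ± 0.66 (SD, n = 3). Against Ly6e, Ly6c2 went from -1.30 ± 0.22 to -3.30 ± 0.30 and Ly6a from -2.57 ± 0.08 to -1.20 ± 0.37. For each of the 3 ratios the groups did not overlap and a two-sided exact permutation test gave p = 0.1 (0.1 after Benjamini-Hochberg adjustment over the 3 ratios), the smallest value that 3 samples against 3 allow, so that this test could not reach 0.05.

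TRM-like replicate 3 stood apart from TRM-like replicates 1 and 2 in the series as a whole. Library totals were 18319013 to 23622621 reads, and 35130 and 35559 genes had a read in TRM-like replicates 1 and 2, against 24229 in TRM-like replicate 3 and 24235 to 24908 in the TEff samples. A chi-square per gene, near 1 for counting noise alone and taken over 14822 genes with 10 or more reads throughout, was 7.26 between TRM-like replicates 1 and 2, and 96.3 and 112 between each of them and replicate 3, which was nearer to TEff replicates 1 (41.9) and 3 (37.4). TEff replicate 2 also stood apart from TEff replicates 1 (26.1) and 3 (25.4), which differed from each other by 3.73, and it was nearer to TRM-like replicates 1 (54.3) and 2 (68.9) than the other TEff samples were. TRM-like replicate 3 was the TRM-like sample nearest to the TEff samples in Ly6a, Ly6c1, and Ly6c2. Without it, Ly6a (1.57), Ly6c1 (-2.25), and Ly6c2 (-2.21) had larger log2 fold changes and stayed past the threshold. With it as the lone TRM-like sample, assumed to vary like the TEff samples, the same number of 3 members passed, 1 higher and 2 lower. This last setting was chosen after the data were seen.

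**Figure D3:**
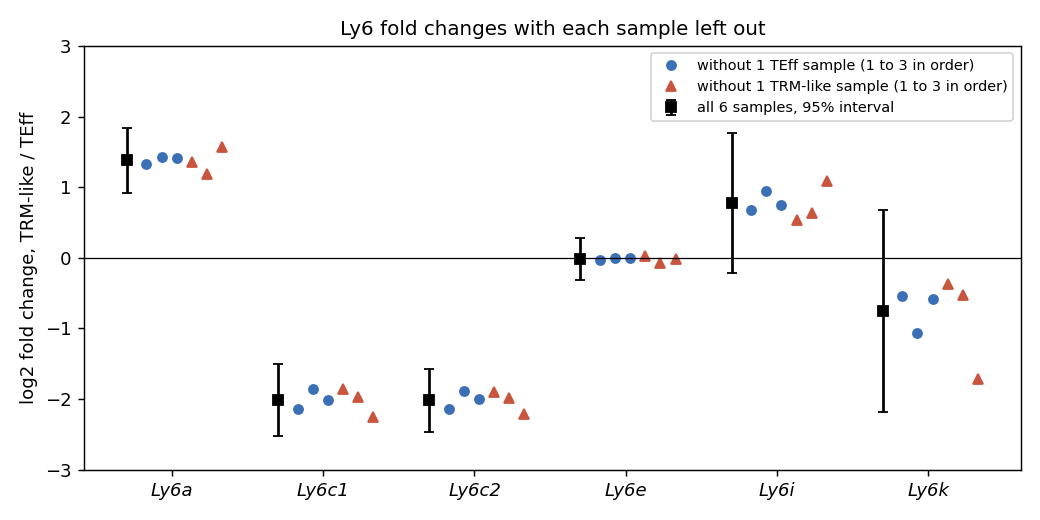
Log2 fold change (TRM-like over TEff) of the 6 tested Ly6 genes, with all samples (black squares, 95% interval) and with 1 sample removed (blue circles, a TEff sample; red triangles, a TRM-like sample; replicates 1 to 3 from left to right). Ly6a stays at 1.18 or above, and Ly6c1 and Ly6c2 at -1.86 or below, while Ly6e stays at 0.03 or below and Ly6k moves down to -1.72.

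Markers of T cells and of other cell types were checked. The 8 T cell markers had reads in every sample and summed to 4660 to 4760 CPM in TEff cells and 5060 to 6050 CPM in TRM-like cells. Of the 8, only Cd8a, a chain of the CD8 coreceptor, passed the threshold, against 3.01% of all genes tested. It went from 436 ± 13.4 to 963 ± 32.4 CPM (SD, n = 3), a log2 fold change of 1.14 (edgeR's quasi-likelihood test, Benjamini-Hochberg adjusted p = 0.00219). Thy1 and Cd8b1 were higher in all TRM-like than in all TEff samples and did not pass. Cd2 (mean 275 CPM in TEff and 176 in TRM-like cells) and Ptprc (2080 and 1790) were lower in all TRM-like samples and did not pass. The 5 neutrophil markers together had 3, 3, and 1 reads in the TEff samples and 5, 11, and 1 in the TRM-like samples, with S100a8 and S100a9 at 0 throughout, and Ly6g, the neutrophil member of the Ly6 family, had at most 1 read. The 6 monocyte and macrophage markers summed to 0.549 to 1.32 CPM in TEff and 0.184 to 1.66 CPM in TRM-like samples. A part of such cells in the levels of Ly6a, Ly6c1, and Ly6c2 was not tested. The endothelial genes Cdh5 and Kdr were at 0 in every TEff sample and at most 0.306 CPM in the TRM-like samples, while Pecam1, which T cells also express, was at a mean of 52.8 and 32.6 CPM. The 4 NK cell markers summed to 10.7, 23.6, and 12.7 CPM in TEff and 22, 21.6, and 0.876 CPM in TRM-like replicates 1, 2, and 3. Of these, Klrb1c, the most abundant, was at a mean of 14.5 CPM in TEff and 5.11 CPM in TRM-like cells. In the same order, Klrb1b was at 0.236 and 4 CPM, Tyrobp at 0.888 and 5.56 CPM, and Ncr1 at 0.0321 and 0.16 CPM. None of these passed the threshold. The 5 B cell markers summed to 5.94, 6.78, and 6.47 CPM in TEff and 9.11, 10.9, and 7.29 CPM in TRM-like samples. All TRM-like sums thus lay above all TEff sums. Cd79b, the most abundant, was at a mean of 4.9 CPM in TEff and 7.08 CPM in TRM-like cells and did not pass. The 5 dendritic cell markers summed to 10.2, 15.4, and 10.3 CPM in TEff and 10.4, 8.61, and 3.18 CPM in TRM-like samples. The 35 markers of other cell types together include Pecam1. They summed to 79.7, 113, and 79.2 CPM in TEff and 85.9, 89.3, and 34.4 CPM in TRM-like replicates 1, 2, and 3. Between 14 and 17 of the 35 were at 0 in the TEff samples and 6, 3, and 18 in the TRM-like samples. In the whole table, more genes likewise had a read in TRM-like replicates 1 and 2 (35130 and 35559) than elsewhere (24229 to 24908). A part of other cell types in the low counts of Ly6i, which was high in the same TRM-like replicates 1 and 2, was not tested.

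The count table holds 52 genes from Psca to Gpihbp1, the stretch that contains the members. Of these 13 were at 0 in every sample, 8 had at least 10 reads in every sample, and 19 were tested. Higher in TRM-like cells were Ly6a and Lynx1, and lower were Ly6c1, Ly6c2, and Ly6a2, while the other 14 did not pass. These 2 higher and 3 lower of 19 stand beside 1.52% higher and 1.48% lower over all genes tested. Ly6a2, annotated as a long noncoding RNA, had 106, 167, and 107 reads in the TEff samples and 13, 23, and 4 in the TRM-like samples. Its level went from 6.40 ± 1.85 to 0.585 ± 0.41 CPM (SD, n = 3), a log2 fold change of -3.43 with a standard error of 0.46 (edgeR's quasi-likelihood test, Benjamini-Hochberg adjusted p = 0.00463). It shares 50-base windows with Ly6a, so reads of these genes may be split. Lynx1, whose product binds nicotinic acetylcholine receptors, had 30, 11, and 13 reads in the TEff samples and 81, 91, and 55 in the TRM-like samples. Its log2 fold change was 1.90 with a standard error of 0.36 (edgeR's quasi-likelihood test, Benjamini-Hochberg adjusted p = 0.0258). This call did not hold without TEff replicate 2 or 3 or TRM-like replicate 1 or 2, where the adjusted p of edgeR's test was 0.0700 to 0.151. Ly6m (log2 fold change 1.02) and Slurp1 (-0.07) did not pass. Ly6f, Ly6h, and Ly6l were at 0 in all samples, and Gml, Gml2, Gpihbp1, Lypd2, Psca, and Slurp2 had at most 4 reads in any sample.

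**Figure D4:**
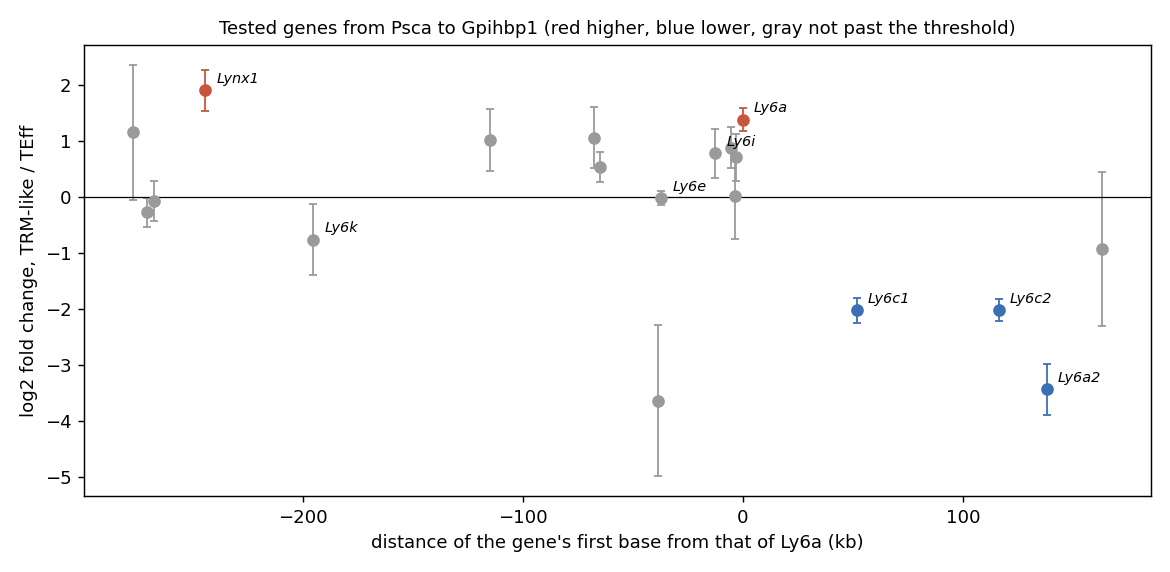
Log2 fold change (TRM-like over TEff, bars are standard errors) of the 19 tested genes from Psca to Gpihbp1 against the distance (kb) of each gene's first base from that of Ly6a. Ly6a (1.38) and the higher gene Lynx1 lie at 0 and to the left, and the lower genes Ly6c1, Ly6c2, and Ly6a2 (-3.43) lie to the right.

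The lower genes followed one another among the tested genes, at 52.0, 116.2, and 138.2 kb from Ly6a, whereas Ly6e and Ly6i, which did not pass, lay at -37.0 and -12.5 kb. No test of this order was made.

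Stretches before the canonical starts of the Ly6C genes are shown because both genes fell alike. They run from 250 to 87 bases before the start of the canonical transcript, where no annotated exon lies, at chr15:74920750-74920913 for Ly6c1 and chr15:74983914-74984077 for Ly6c2, both on the minus strand of GRCm39. The annotated Ly6c2 gene reaches to 74988467, so its stretch lies inside the gene and not before it. Capitals mark a match to a searched motif.

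Ly6c1: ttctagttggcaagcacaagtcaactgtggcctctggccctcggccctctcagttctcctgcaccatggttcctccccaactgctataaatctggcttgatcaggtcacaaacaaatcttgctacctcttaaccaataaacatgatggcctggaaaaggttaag
Ly6c2: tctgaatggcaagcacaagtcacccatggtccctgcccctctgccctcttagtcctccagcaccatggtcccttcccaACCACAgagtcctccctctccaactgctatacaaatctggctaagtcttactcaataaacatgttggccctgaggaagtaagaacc

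These stretches were identical in 116 of 168 aligned columns (69.0%), against 97.7% in the coding sequence. The capitals in Ly6c2 are the Runx motif TGTGGT on the other strand, and Ly6c1 had no match. In all 7 members the 250 bases before the canonical start were searched on both strands for TTCNNNGAA (GAS, the interferon-γ activated site), the ISRE core (a pair of GAAA runs separated by any 2 bases, the interferon response element), GGTGTGA (T-box), CAGACA (Smad), and TGTGGT (Runx). These letters occur in 7.70%, 3.32%, 3.23%, 15.6%, and 13.0% of the same windows of 21770 protein-coding genes. Ly6a held 1 T-box and 1 Smad match, Ly6c2 its Runx match, Ly6k a GAS, 2 Smad, and 1 Runx match, and Ly6d an ISRE core, 2 Smad, and 1 Runx match, while Ly6c1, Ly6e, and Ly6i held none of the 5 motifs. Other annotated transcripts of Ly6a, Ly6c1, Ly6c2, and Ly6k begin within or before this window. The window is thus not the only promoter of these genes. A match describes letters only.

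Among genes of the interferon pathway, more rose than fell in TRM-like cells. Of the 31 listed genes, all of which were tested, 10 rose and 2 fell, against 1.52% and 1.48% of all genes tested, and their median log2 fold change was 0.61 against 0.02 over all genes tested. The list was written with results of these data known. Among those that rose, Ifngr2, a chain of the interferon-γ receptor, went from 0.713 ± 0.208 to 9.25 ± 1.23 CPM (SD, n = 3), a log2 fold change of 3.68 (edgeR's quasi-likelihood test, Benjamini-Hochberg adjusted p = 0.000209). Irf1, Irf8, and Stat2, which are transcription factors, and Socs1, a feedback inhibitor, rose by log2 fold changes of 1.07, 1.81, 0.85, and 0.79. The interferon-induced GTPases Igtp, Ifi47, Irgm1, and Gbp2 rose by 1.44, 1.39, 1.16, and 1.5. Ifngr1, the other chain of that receptor, fell from 584 ± 90.4 to 285 ± 30.1 CPM (log2 fold change -1.03), and Mx1, an antiviral GTPase, fell from 14.5 ± 3.81 to 3.32 ± 1.84 CPM (log2 fold change -2.12). Jak1, a kinase of the interferon-γ receptor, was at 415 ± 56.8 and 432 ± 51.9 CPM and did not pass. Neither did Ifng, the ligand, at 2.76 ± 1.13 and 2.42 ± 1.81 CPM. The summed CPM of the list was 2030, 2510, and 2080 in TEff and 3160, 3410, and 2300 in TRM-like replicates 1, 2, and 3, so that the groups overlapped through TRM-like replicate 3. A part of this pathway in the level of Ly6a was not tested. The count of 12 fell to 5, 6, or 7 without any one of TEff replicates 1 to 3 or TRM-like replicates 1 and 2. Over all genes tested, 263 to 443 passed in those fits, against 786 with all samples. Without TRM-like replicate 3 the count was 20, and 3579 of all 25478 genes tested passed.

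Genes known from circulating effector T cells, which carry Ly6C, fell more often than they rose in TRM-like cells. Of the 15 listed genes, 1 rose and 7 fell, against 1.52% and 1.48% of all genes tested, and the median log2 fold change was -1.62. S1pr1, a receptor for egress from tissue, Eomes, a T-box factor, and Il18rap, an IL-18 receptor chain, fell, with log2 fold changes of -2.33, -2.09, and -1.83. The cytotoxic genes Gzmb and Prf1 fell, with log2 fold changes of -1.91 and -2.67, as did the integrin gene Itgb1 at -2.01. Cx3cr1, a chemokine receptor of circulating effector cells, rose by 3.79, from 0.574 ± 0.0815 to 7.94 ± 5.64 CPM, with 1.43 CPM in its lowest TRM-like sample. This call did not hold in every setting: with limma-voom, and in edgeR without any one of TEff replicates 1 to 3 or TRM-like replicates 1 and 2, the list had 0 higher genes. Klrg1, another marker of such cells, was near the floor in both groups. With each sample left out, 7 to 11 genes of the list passed, the 11 without TRM-like replicate 3. In that fit 3579 of all 25478 genes tested passed.

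Of the 31 genes in the table that make or attach the GPI anchor, 30 were tested. Pgap1, which trims the anchor lipid, fell from 7.03 ± 0.358 to 3.51 ± 0.442 CPM (SD, n = 3), with a log2 fold change of -1 (edgeR's quasi-likelihood test, Benjamini-Hochberg adjusted p = 0.0229). It was the only 1 of the 30 past the threshold, a share near the 3.01% of all genes tested, and the median log2 fold change was -0.01. With 1 sample left out 0 to 7 genes passed, the 7 (1 higher and 6 lower) without TRM-like replicate 3. In that fit 3579 of all 25478 genes tested passed. Pigm and Pigs, the most abundant by CPM, were at 61.3 and 51.9 CPM in TEff and 61.1 and 56.2 CPM in TRM-like cells.

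Other GPI-anchored proteins of T cells moved in both directions. Of 21 tested, 3 rose and 2 fell, against 3.01% of all genes tested in either direction, with a median log2 fold change of -0.15. Nt5e, the ectoenzyme CD73, rose from 22.8 ± 5.11 to 134 ± 12.6 CPM (log2 fold change 2.55), and Prnp, the prion protein gene, from 12.1 ± 2.37 to 56.8 ± 12.2 CPM (2.23). Cd160, a receptor of cytotoxic cells, rose from 52.0 ± 3.96 to 149 ± 66.5 CPM (1.51). Izumo1r, a folate receptor relative, fell from 9.13 ± 0.424 to 1.70 ± 0.412 CPM (log2 fold change -2.42) and Sema7a, a semaphorin, from 5.41 ± 1.82 to 1.43 ± 0.35 CPM (-1.91). Thy1 (651 ± 39.8 and 803 ± 71.1 CPM) and Cd52 (578 ± 46.3 and 721 ± 273 CPM), the most abundant of the list, did not pass. With each sample left out, 3 to 8 genes passed, the 8 without TRM-like replicate 3. In that fit 3579 of all 25478 genes tested passed.

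Of the relatives of the family outside chromosome 15, 21 were in the table and 7 were tested. Ly6g5b rose from 10.3 ± 1.2 to 54.0 ± 16.6 CPM (SD, n = 3), a log2 fold change of 2.39 with a standard error of 0.24 (edgeR's quasi-likelihood test, Benjamini-Hochberg adjusted p = 0.00123). Its lowest TRM-like sample was at 35.6 CPM and its highest TEff sample at 11.4 CPM. Lypd6b, the other relative with several CPM, was at 4.30 ± 1.93 and 7.63 ± 4.36 CPM and did not pass. Ly6g5b was the only 1 of the 7 past the threshold, against 3.01% of all genes tested. The median log2 fold change of the 7 was 0.83, against 0.02 over all genes tested. In each TEff sample 15 to 17 of the 21 were at 0, against 5, 7, and 16 in TRM-like replicates 1, 2, and 3. Over the whole table, TRM-like replicates 1 and 2 also had reads in more genes (35130 and 35559) than the other samples (24229 to 24908).

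The genes whose pattern over the 6 samples was most like that of a member were taken by the root mean square distance of log2 CPM, centred on the mean of each gene, among 14821 other genes with at least 10 reads in every sample. The nearest gene to Ly6c1 was Ly6c2 and the nearest to Ly6c2 was Ly6c1, at a distance of 0.053. Reads shared by these near copies may add to this likeness, which was not tested. Next came Hs3st3b1 (0.141) and Tanc2 (0.155) for Ly6c1, and Itgb1 (0.122) and Hs3st3b1 (0.138) for Ly6c2. For Ly6a the nearest were Cd72 (0.107), Cd96 (0.109), and Cotl1 (0.116), of which Cd96, a receptor of T and NK cells, had 181 CPM in TEff and 504 CPM in TRM-like cells. For Ly6e they were Clcn4 (0.026), Nprl2 (0.026), and Naca (0.027). With 3 samples in each group this likeness reflects mostly the group difference and is given as a description.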

How the data were processed

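RNA sequencing counts of 6 samples were used, grouped by the GEO labels. The authors trimmed reads (cutadapt 4.8 per the labels), mapped and counted them with Rsubread on GENCODE genes of GRCm39. They deposited unnormalized counts for each gene, with its length. DESeq2 1.40.2 is also named in the submitters' processing notes. Symbols and coordinates came from GENCODE M39, in which 56620 of the 57126 genes were found.

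Counts were tested with edgeR 4.0.16 in R 4.3.3 (TMM, glmQLFit and glmQLFTest, Benjamini-Hochberg adjustment) on genes that had 1 or more counts in 3 or more samples. The standard error is the log2 fold change divided by the square root of F. For ratios, 0.5 was added to each count. The study removed a batch effect for its plots without naming the batch, and none was removed here. Alternatives were DESeq2 1.42.0, limma-voom (limma 3.58.1), other scalings and filters, glmTreat, a replicate block, and each sample left out. Sequences were read from GRCm39 with M39 transcripts and aligned with biopython 1.88.

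The members, lists, and named genes (members, cluster genes, list genes past the threshold and the most abundant, nearest genes in pattern) were chosen with earlier results of these data known. Not every gene this rule selects is described. Ifng, Klrg1, and the marker genes named singly were chosen after their values were seen. Some genes of the lists are not reported here by name.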

Additional observations from a re-analysis of the deposited data

How the results depend on the processing

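Of the 7 Ly6 genes, 3 were past the threshold in all 11 settings that kept all samples or left out TRM-like replicates 1 and 2 together, and 2 to 4 with 1 sample left out. Ly6c1 and Ly6c2 kept their calls in the 14 settings run for single genes, 8 with all samples and 6 with 1 left out. Ly6a ranged from 1.18 to 1.57 with 1 sample left out, and without TEff replicate 1 (1.33) or 3 (1.42) it missed the threshold. The log2 fold change of Ly6e ranged from -0.08 to 0.03 with 1 sample left out, and was above 0 without TEff replicate 2 (0.0041) and without TRM-like replicate 1 (0.03). Ly6i ranged from 0.54 to 1.09 and passed without TRM-like replicate 3, and Ly6k ranged from -1.72 to -0.37. The count over all genes (786) was 1256 with DESeq2, 1868 with no filter, 2034 with the replicate block, 339 with glmTreat, and 263 to 3579 with 1 sample left out, the highest without TRM-like replicate 3. The causes were not tested. With no filter and with the block, the estimated prior degrees of freedom were infinite.

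Whether the replicate numbers pair the samples is not known. Deviations of same-numbered samples from their group means correlated at -0.28, 0.298, and 0.38 over 14822 genes for replicates 1, 2, and 3. With 3 samples per group, of which TRM-like replicate 3 and TEff replicate 2 stood apart, these values cannot decide it. With the replicate block, 3 members passed, with log2 fold changes of 1.35 for Ly6a, -2.03 for Ly6c1, -2.02 for Ly6c2, and -0.02 for Ly6e. Of the lists, the block gave 16 interferon genes, 11 circulating effector genes, 8 other GPI-anchored, and 3 anchor synthesis genes. Over all 26154 genes tested, 2034 passed with the block. Under the filter of 10 counts per sample Ly6i and Ly6k had no value, and Ly6d had none in any setting. Low depth on Ly6i, Ly6k, and Ly6d limits what could be detected there.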
